A study of Mus musculus with 9 samples.

Results

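The comparison described here sets leukaemia cells 48 h after doxycycline withdrawal against the same cells 24 h after it. It uses 6 of the 9 samples of the study, the 3 whose columns in the count table are named FLT3 OFF 48H (called OFF48 here) and the 3 named FLT3 OFF 24H (called OFF24), chosen by those names alone. The cells are a mouse acute myeloid leukaemia line grown from fetal liver cells that carry a pair of retroviral vectors. One drives MLL-AF9, a leukaemia fusion protein, together with luciferase at all times, and the other drives FLT3-ITD, a mutant growth factor receptor that is active on its own, together with DsRED from a doxycycline-responsive promoter. All groups therefore share MLL-AF9 and both vectors, and differ in how long FLT3-ITD has been switched off. OFF24 and OFF48 also differ in time in culture after withdrawal, and the labels give no ON sample matched to either time. Time without FLT3-ITD and time in culture therefore cannot be told apart here. Cells with the switch on were kept in 1 µg/mL doxycycline (ON, 3 samples), and OFF24 and OFF48 cells were washed in buffer and grown without the drug for 24 h or 48 h. The culture is a single engineered line outside an animal, the labels do not say whether the 3 samples of a group are separate cultures, and the p-values therefore cover only how far these samples scatter, which can be technical scatter alone.

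Messenger RNA was read by QuantSeq, which sequences the 3' end of polyadenylated transcripts and so gives a read count per gene that does not scale with transcript length. The total count was 2420918 to 3406811 in OFF24 and 1329296 to 3396364 in OFF48, where replicate 2 was the shallowest library. Levels are CPM, read counts scaled to a common library total with the trimmed mean of M-values (TMM), and are given for replicates 1, 2 and 3 in that order or as the mean ± SD with n = 3. The fold change is OFF48 over OFF24 on the log2 scale, its standard error (SE) is approximate, and the adjusted p is from edgeR's quasi-likelihood test with Benjamini-Hochberg adjustment over all 10215 genes that passed the expression filter. A gene rose or fell where that adjusted p was below 0.05. The row for Flt3, the gene under the switch, was below the filter in this fit, at 1.28 ± 0.232 CPM in ON, 1.67, 1.26 and 2.98 CPM in OFF24 and 2.35, 1.5 and 1.75 CPM in OFF48; whether these reads come from the introduced or the native gene is not given in the table, and the labels were not checked with them.

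Leukocyte and myeloid identity genes were present in both groups. Ptprc, the common leukocyte antigen CD45, was between 147 and 217 CPM in the 6 libraries, and Spi1, the transcription factor PU.1, between 202 and 319 CPM. Of the other identity genes checked, Mpo was between 288 and 864 CPM, Itgam between 116 and 222 CPM and Cebpa between 96.8 and 132 CPM. Csf1r was between 22.5 and 30.1 CPM, below some of the marker sums that follow. Most genes of other cell types were low. Of the 14 erythroid markers listed, 8 had no count in the 6 libraries, the β-globins among them. Tfrc, the transferrin receptor that dividing cells of many kinds make, held 99.1% of that list's signal (79.7 to 97.8 CPM in OFF24, 110.2 to 125 in OFF48). The summed lymphoid markers lay between 4.36 and 14.6 CPM, eosinophil markers between 9.42 and 20.1 CPM, and dendritic cell markers at 13 to 14.8 CPM in OFF24 against 6 to 7.38 in OFF48. Bst2, the 1 dendritic cell marker that was tested, held 73.2% of that list's signal and fell (log2 -1.24). Markers of megakaryocytes, mast cells and basophils together reached 74.0 to 80.7 CPM in OFF24 and 90.6 to 110.2 in OFF48. Gp1bb, whose 3' end is shared with another gene model, held 69.1% of this and rose (log2 0.74). The other tested members of that list, Gata2 (log2 -1.35) and Mcpt8 (log2 -0.73), fell, each call being lost under 6 of 20 alternatives. Hepatocyte and stromal markers reached 51.4 to 70.0 CPM, of which Pecam1 held 83.7%. S100a8 and S100a9 together took 1.27 to 1.35% of all counts in OFF24 and 4.29 to 4.87% in OFF48, while cytosolic ribosomal protein genes took 18.4 to 18.9% and then 14.2 to 14.9%. The part of these shifts in the gene results that follow was not tested.

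Oxygen sensing and granule formation are the myeloid biology behind many of the named genes. Hypoxia-inducible factor (HIF) is a transcription factor whose α subunit is marked for destruction by prolyl hydroxylases when oxygen is plentiful; where it accumulates it turns on glucose transporters, glycolytic enzymes and genes that divert carbon away from mitochondria, and leukaemia cells with active growth factor signalling often keep this programme on. Neutrophil precursors fill their granules in order, with azurophil granule proteases and myeloperoxidase made first at the promyelocyte stage and the proteins of specific and gelatinase granules later, as the cells mature under factors such as C/EBPε. FLT3-ITD is known for driving STAT5, ERK and AKT signalling in such cells.

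Between 24 h and 48 h, 2160 of the 10215 tested genes changed (21.1%). Of these, 1020 rose (9.99% of tested genes) and 1140 fell (11.2%), and the median log2 fold change over all tested genes was 0.00. Large changes were more often falls: 170 genes rose at least 2-fold (1.66%) and 408 fell at least 2-fold (3.99%). The plot of all tested genes shows glycolysis and HIF target genes mostly below zero, neutrophil granule genes mostly above it, and the abundant ribosomal protein genes as a narrow band a little below it. In bulk samples such as these, fewer cells of a type and less RNA per cell cannot be told apart.

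**Figure D1:**
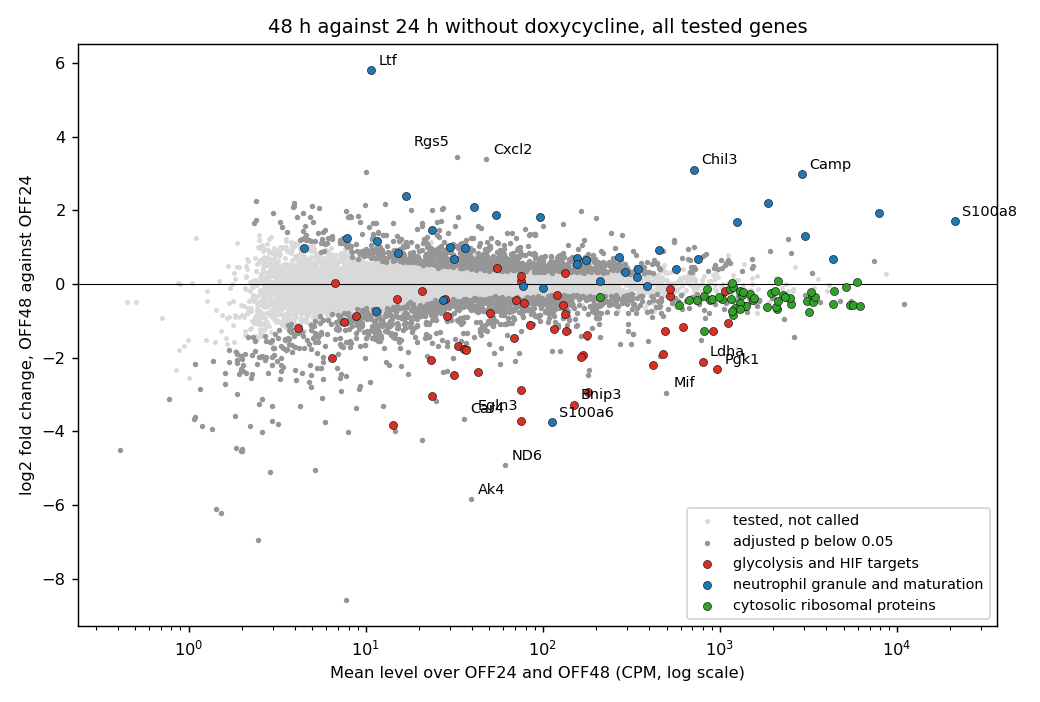
Log2 fold change of OFF48 against OFF24 (vertical axis) by mean level over both groups in CPM (horizontal axis, log scale), with a point for each of the 10215 tested genes. Red points (glycolysis and HIF targets) lie mostly below zero, blue points (neutrophil granule and maturation) mostly above, and green points (cytosolic ribosomal proteins) in a band just below zero; Ltf at 5.80 and Ak4 at -5.85 are labelled with other genes of large change.

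Glycolysis fell nearly along its whole length. Of 22 tested genes of the list, 16 fell and 1 rose, against 11.2% and 9.99% of all tested genes, and the median log2 fold change was -1.28. Of 27 tested HIF targets outside glycolysis, 21 fell and 1 rose, with a median of -1.19. Taking both lists together, 37 of 49 genes fell, against 11.2% of all tested genes. Both lists were drawn up with earlier results of these samples known, so their direction is a description and not independent evidence.

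The promoters of 4 of these genes are shown because they hold the short element through which HIF is known to bind, and they were picked after the values of their genes were seen. Each is a RefSeq window on GRCm38.p6 from 250 bases before to 50 bases after a start of the gene. It is written 5' to 3' on the gene's strand. Every match to ACGTG or GCGTG, or to their reverse complements CACGT and CACGC, is in capitals. Ldha has 2 windows, and the one with the most matches is shown, while Egln3, Bnip3 and Pgk1 have 1 each. A CACGTG holds an ACGTG on each strand and counts as 2 matches.
Egln3 (chr12:54203825-54204124, minus strand): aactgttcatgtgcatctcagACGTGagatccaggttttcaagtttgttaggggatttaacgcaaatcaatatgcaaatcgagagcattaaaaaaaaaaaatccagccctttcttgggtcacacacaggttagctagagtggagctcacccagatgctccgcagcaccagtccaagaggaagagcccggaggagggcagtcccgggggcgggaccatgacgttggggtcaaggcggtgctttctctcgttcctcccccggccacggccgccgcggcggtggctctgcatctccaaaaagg
Bnip3 (chr7:138909457-138909756, minus strand): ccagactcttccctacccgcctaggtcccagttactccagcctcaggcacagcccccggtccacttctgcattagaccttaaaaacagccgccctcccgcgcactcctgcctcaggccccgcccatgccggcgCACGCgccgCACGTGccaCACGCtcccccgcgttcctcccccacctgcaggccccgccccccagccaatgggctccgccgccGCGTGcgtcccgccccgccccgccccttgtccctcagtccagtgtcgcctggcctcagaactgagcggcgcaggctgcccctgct
Pgk1 (chrX:106186850-106187149, plus strand): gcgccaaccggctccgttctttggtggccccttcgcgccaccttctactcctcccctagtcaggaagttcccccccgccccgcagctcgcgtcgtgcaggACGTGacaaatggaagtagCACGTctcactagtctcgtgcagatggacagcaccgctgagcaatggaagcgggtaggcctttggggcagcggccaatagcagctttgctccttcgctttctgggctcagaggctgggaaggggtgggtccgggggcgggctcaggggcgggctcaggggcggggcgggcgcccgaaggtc
Ldha (chr7:46845554-46845853, plus strand): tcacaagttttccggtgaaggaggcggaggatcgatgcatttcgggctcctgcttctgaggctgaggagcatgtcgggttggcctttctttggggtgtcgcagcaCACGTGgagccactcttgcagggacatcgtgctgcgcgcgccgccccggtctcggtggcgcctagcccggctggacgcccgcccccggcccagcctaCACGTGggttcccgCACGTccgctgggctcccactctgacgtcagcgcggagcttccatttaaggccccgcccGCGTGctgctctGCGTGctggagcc
The Egln3 window holds 1 match to ACGTG, that of Pgk1 2 and that of Bnip3 2 with 3 more to GCGTG. The window shown for Ldha holds 5 with 2 more to GCGTG. Genes were then counted where any of their windows held the element. Of the glycolysis and HIF target genes that fell, 33 had a promoter in the RefSeq table, and 24 of these hold ACGTG (72.7%). So do 7 of the 10 matched list members that did not fall (70%), 2461 of the 8015 matched tested genes (30.7%) and 21.8% of all 27018 genes with a promoter; counted by window it is 19.6% of 32841. ACGTG or GCGTG stands before 31 of the 33 genes that fell (93.9%), 9 of the 10 members that did not (90%), 69.6% of tested genes and 46.7% of all genes with a promoter. The shares were thus close in members that fell and members that did not. A match is a description of the letters and not a binding site.

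The glucose carriers and first enzymes moved unevenly. Slc2a1, which encodes the glucose transporter GLUT1, was at 59.8, 52.7 and 48.9 CPM in OFF24 and 10.7, 5.25 and 10.8 CPM in OFF48, and fell (log2 fold change -2.46, SE 0.26, adjusted p = 6.72e-06). The other glucose carrier of the list, Slc2a3, gave 22.3 ± 6.07 CPM in OFF24 and 19.6 ± 2.54 CPM in OFF48 (log2 -0.20, adjusted p = 0.584). Hexokinase commits glucose to the cell: Hk2 fell modestly, from 156 ± 10.7 to 105 ± 9.25 CPM (log2 -0.56, adjusted p = 0.00199), while Hk1 (log2 -0.31) and Hk3 (log2 0.07) did not pass the test. Gpi1, the isomerase of the second step, was at 1042, 1171 and 1208 CPM in OFF24 and 944, 1068 and 1002 CPM in OFF48, so that its groups overlapped (log2 fold change -0.18, SE 0.10, adjusted p = 0.204). The 3 phosphofructokinase genes of the next step, Pfkl, Pfkm and Pfkp, all fell, with log2 fold changes of -1.80, -2.02 and -1.48.

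The lower part of the pathway fell at every step. Aldoc, an aldolase, was at 310.2, 344 and 300.3 CPM in OFF24 and 37.6, 35.2 and 49.3 CPM in OFF48, every OFF48 library being far below every OFF24 library (log2 fold change -2.93, SE 0.15, adjusted p = 2.97e-11). The more abundant aldolase Aldoa fell from 1292 ± 162 to 532 ± 90.8 CPM (log2 -1.29) and triosephosphate isomerase, Tpi1, from 693 ± 82.4 to 148 ± 19.3 CPM (log2 -2.21). Pgk1, the first enzyme of glycolysis to yield ATP, was at 1670, 1609 and 1539 CPM in OFF24 and 259, 342 and 369.7 CPM in OFF48 (log2 fold change -2.31, SE 0.12, adjusted p = 6.34e-11). All 3 OFF48 values were below all OFF24 values, and below the level in ON cells (979.5 ± 85.9 CPM). Eno1 fell by 1.89 on the log2 scale, Pkm by 1.16 and Pgam1 by 1.07. Ldha, which turns pyruvate to lactate, was at 1337, 1264 and 1309 CPM and then 308, 269 and 321 CPM (log2 fold change -2.12, SE 0.10, adjusted p = 2.97e-11), and the lactate exporter Slc16a3 fell from 191 ± 27.5 to 81.5 ± 19.2 CPM (log2 -1.27, adjusted p = 0.00143). Gapdh also fell (log2 -1.69), but 4 other gene models end in the same sequence as Gapdh and 1, Eno1b, in that of Eno1, so their levels are uncertain.

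Regulators beside the pathway moved apart from one another. Pfkfb3 and Pfkfb4 make the activator of phosphofructokinase; Pfkfb3 was at 69.8 ± 7.95 CPM in OFF24 and 80.0 ± 12.2 CPM in OFF48 (log2 0.23, adjusted p = 0.272), and Pfkfb4 was the 1 member that rose, from 47.2 ± 5.27 to 63.7 ± 3.68 CPM (log2 0.45, adjusted p = 0.0219). That call was lost with DESeq2, with the authors' log2 table and without OFF24 replicate 2 or OFF48 replicate 3, where the adjusted p reached 0.105. Pdk1, the kinase that shuts pyruvate out of the mitochondrion, was at 141, 119 and 134 CPM in OFF24 and 16.4, 21 and 17.5 CPM in OFF48, the OFF48 libraries all far below (log2 fold change -2.88, SE 0.15, adjusted p = 8.28e-11). The pentose phosphate pathway, which branches off glucose 6-phosphate, moved the other way: 4 of 8 tested genes rose (9.99% of all tested genes) and 0 fell, with a median of 0.39. They were Rpia (log2 0.65), H6pd (log2 0.51), Taldo1 (log2 0.44) and Pgls (log2 0.43).

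**Figure D2:**
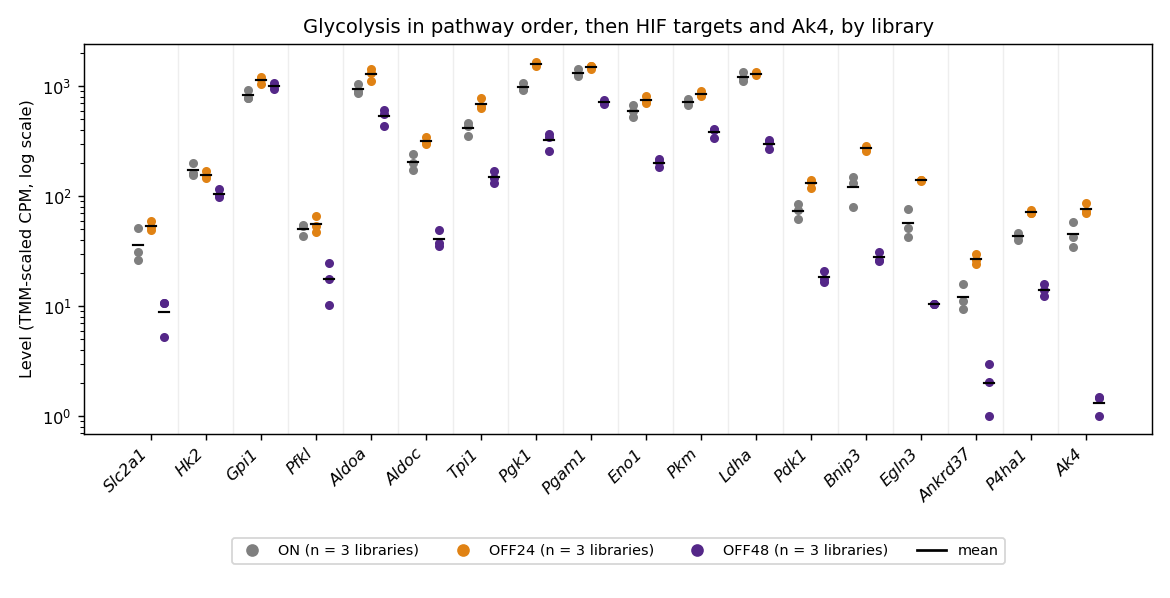
Level in CPM (vertical axis, log scale) of 18 genes in each of the 9 libraries: glycolysis in pathway order from Slc2a1 to Ldha, then HIF targets and Ak4. Points are libraries, coloured grey for ON, orange for OFF24 and purple for OFF48, and bars are means; OFF48 lies below OFF24 in every library for each gene shown except Gpi1, where the groups overlap.

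Among HIF targets outside glycolysis the largest falls were in Ankrd37, Egln3 and Bnip3. Egln3 (chr12:54178981-54203860 on the minus strand), one of the prolyl hydroxylases that mark HIF for destruction, was at 139.6, 140 and 138 CPM in OFF24 and 10.4, 10.5 and 10.5 CPM in OFF48 (log2 fold change -3.73, SE 0.20, adjusted p = 1.52e-10). Egln1, its more widely used relative, fell from 115 ± 6.79 to 52.9 ± 4.29 CPM (log2 -1.11). Bnip3 (chr7:138890836-138909519 on the minus strand), a receptor for the removal of mitochondria, was at 260, 286 and 268 CPM in OFF24 and 31.2, 26.2 and 25.7 CPM in OFF48 (log2 fold change -3.28, SE 0.20, adjusted p = 1.52e-08). In both genes the 3 OFF48 libraries lay far below the 3 OFF24 libraries. Bnip3l, the close relative of Bnip3, was at 548 ± 14.2 CPM in OFF24 and 494 ± 26.8 CPM in OFF48 and did not pass the test (log2 -0.15, adjusted p = 0.365).

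Ankrd37, a HIF target of unclear function, had 236 counts over the 3 OFF24 libraries and 14 over the 3 OFF48 libraries, a ratio of 14.6 with a 95% counting interval of 8.54 to 27.1. Stc2, a secreted glycoprotein also counted among ATF4 targets, fell from 42.1 ± 0.651 to 5.05 ± 0.614 CPM (log2 -3.05), and P4ha1, a collagen prolyl hydroxylase subunit, from 72.1 ± 2.54 to 14.0 ± 1.75 CPM (log2 -2.40). Fam162a fell by 1.94, Ndrg1 by 1.76, Higd1a by 1.39 and Ero1l, an oxidase of the endoplasmic reticulum, by 1.27 on the log2 scale. Vegfa, the angiogenic growth factor, passed the test by a small margin (log2 -0.43, adjusted p = 0.045), and its call was lost under 12 of 20 alternatives. Mxi1, a MAX-binding repressor, was the 1 member that rose (log2 0.30), and that call was lost under 11 of 20 alternatives, with an adjusted p of up to 0.124.

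Unlike the hydroxylases, Hif1a and Vhl did not pass the test. Hif1a was at 85.3, 98.2 and 84.9 CPM in OFF24 and 83.5, 96.0 and 90.1 CPM in OFF48, with overlapping groups (log2 0.00, adjusted p = 0.986), and was at 129.6 ± 4.79 CPM in ON. Vhl, the adaptor that takes hydroxylated HIF to destruction, was at 20.5 ± 1.23 CPM in OFF24 and 20.9 ± 4.05 CPM in OFF48 (log2 0.08, adjusted p = 0.825). These are transcript levels, and HIF protein was not measured.

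Several of these genes had stood higher at 24 h than in ON cells before they fell. Egln3 was at 57.1 ± 17.7 CPM in ON, Bnip3 at 120.3 ± 36.4 CPM, Pdk1 at 74.0 ± 11.4 CPM and Aldoc at 204 ± 34.8 CPM, each between its OFF24 and OFF48 levels. Over the HIF list the median log2 fold change was 0.59 for OFF24 against ON and -0.80 for OFF48 against ON, and over glycolysis 0.33 and -1.36. These comparisons share their ON libraries with each other and their OFF libraries with the present one, so the values stand side by side and are no further evidence.

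The largest fall among genes of at least 10 CPM was in Ak4 (chr4:101419277-101466995 on the plus strand), a mitochondrial adenylate kinase. Ak4 was at 87.0, 70.6 and 73.9 CPM in OFF24 and 1.01, 1.5 and 1.46 CPM in OFF48, near the floor of detection (log2 fold change -5.85, SE 0.30, adjusted p = 4.81e-11). It had 681 counts over the 3 OFF24 libraries and 10 over the 3 OFF48 libraries, a ratio of 59.0 with a 95% counting interval of 31.9 to 124. The ON level was 45.3 ± 12.2 CPM. Mif, a cytokine whose 3' end is shared with 2 other gene models, fell from 795, 918 and 915 CPM to 90.2, 148 and 109 CPM (log2 fold change -2.95, SE 0.17, adjusted p = 7.63e-09). Itgb7, an integrin subunit, fell from 27.4 ± 4.57 to 1.93 ± 0.925 CPM, with 246 counts over the 3 OFF24 libraries and 13 over the 3 OFF48 libraries, a ratio of 16.4 with a 95% counting interval of 9.41 to 31.2. Clec4d, a C-type lectin receptor of myeloid cells, fell from 22.6 ± 3.65 to 2.38 ± 0.814 CPM, with 200 counts over the 3 OFF24 libraries and 17 over the 3 OFF48 libraries, a ratio of 10.2 with a 95% counting interval of 6.21 to 17.9. Car4 (chr11:84957786-84966044 on the plus strand), a carbonic anhydrase at the cell surface, was lower at each time: it was at 1028 ± 89.2 CPM in ON, 69.4, 69.7 and 61.4 CPM in OFF24 and 6.04, 1.5 and 6.12 CPM in OFF48 (log2 fold change -3.66, SE 0.21, adjusted p = 1.64e-10).

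Genes of the later neutrophil granules mostly rose. Of 38 tested genes of specific and gelatinase granules and neutrophil maturation, 28 rose and 2 fell, against 9.99% and 11.2% of all tested genes, with a median log2 fold change of 0.87. The largest fall in this list was that of S100a6 (log2 -3.75). Camp (chr9:109847379-109849617 on the minus strand), the cathelicidin of specific granules, was at 710.3, 639.7 and 625 CPM in OFF24 and 5105, 5625 and 4772 CPM in OFF48 (log2 fold change 2.97, SE 0.11, adjusted p = 8.46e-13). The OFF48 libraries all held several times the level of any OFF24 library, and the ON level was 202 ± 26.1 CPM. Ltf, which encodes the iron-binding lactoferrin, had 3 counts over the 3 OFF24 libraries and 161 over the 3 OFF48 libraries, a ratio of 61.9 with a 95% counting interval of 20.8 to 303. It was at 0, 0.314 and 0.596 CPM in OFF24 and 13.8, 24.0 and 25.7 CPM in OFF48 (log2 fold change 5.80, SE 0.53, adjusted p = 1.64e-07; 6.58 without OFF24 replicate 3), and stayed low beside Camp at both times.

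The other granule genes rose at very different levels. Ngp, neutrophilic granule protein, was at 631, 752 and 625 CPM in OFF24 and 2345, 4233 and 2638 CPM in OFF48, where replicate 2 stood highest (log2 fold change 2.20, SE 0.22, adjusted p = 3.95e-05). Chil3 (chr3:106147554-106167564 on the minus strand), a chitinase-like protein that myeloid cells secrete, was at 156, 146 and 144 CPM and then 1033, 1358 and 1434 CPM (log2 fold change 3.10, SE 0.14, adjusted p = 2.31e-11). Its neighbour in sequence, Chil4, rose from a low level, from 2.33 ± 1.05 to 17.7 ± 5.41 CPM, with 20 counts over the 3 OFF24 libraries and 149 over the 3 OFF48 libraries, a ratio of 8.60 with a 95% counting interval of 5.37 to 14.5. Lcn2, the siderophore-binding lipocalin, rose from 42.6 ± 6.03 to 149.5 ± 33.8 CPM (log2 1.81), and Lyz2, lysozyme, from 593 ± 45.1 to 1915 ± 508 CPM (log2 1.69), although its 3' end is shared with Lyz1. The metalloproteinase Mmp9 of gelatinase granules was at 2.93, 5.34 and 7.15 CPM in OFF24 and 30.9, 33 and 22.2 CPM in OFF48 (log2 fold change 2.38, SE 0.26, adjusted p = 2.24e-06).

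S100a8 and S100a9 form calprotectin, an abundant protein of the neutrophil cytosol, and were both among the 5 most abundant transcripts that changed. S100a8 was at 9909, 10370 and 9641 CPM in OFF24 and 31680, 35550 and 30530 CPM in OFF48 (log2 fold change 1.71, SE 0.10, adjusted p = 1.55e-10). In the authors' log2 table the S100a8 difference was 0.51 (limma, adjusted p = 0.0032), the lowest of the alternatives. S100a9 was at 3482, 3210 and 3199 CPM and then 11800, 13050 and 12870 CPM (log2 fold change 1.93, SE 0.09, adjusted p = 2.16e-11). The ON levels were 9671 ± 1014 CPM for S100a8 and 3385 ± 239 CPM for S100a9, close to those at 24 h.

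Of the NADPH oxidase that makes superoxide, the membrane subunit Cybb rose from 13, 18.2 and 14.9 CPM to 49.0, 72.7 and 77.8 CPM (log2 fold change 2.09, SE 0.19, adjusted p = 1.90e-07). The cytosolic subunits Ncf1 and Ncf4 rose (log2 0.67 and 0.65), while the second membrane subunit Cyba (log2 0.41, adjusted p = 0.0516) did not pass. Fcnb, a ficolin of neutrophil granules, rose from 23.1 ± 5.35 to 85.8 ± 9.37 CPM (log2 1.87). Csf3r, the G-CSF receptor, rose from 4.88 ± 0.679 to 10.9 ± 5.55 CPM (log2 1.26), but not without OFF48 replicate 3, where the adjusted p was 0.155. Ly6g, the surface marker of mature mouse neutrophils, went the other way, from 14.1 ± 1.47 to 8.78 ± 1.58 CPM (log2 -0.73, adjusted p = 0.0314), and that call was lost under 7 of 20 alternatives. Il1b, Cxcr2, Fpr1 and Retnlg, which mark mature neutrophils, were below the expression filter.

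**Figure D3:**
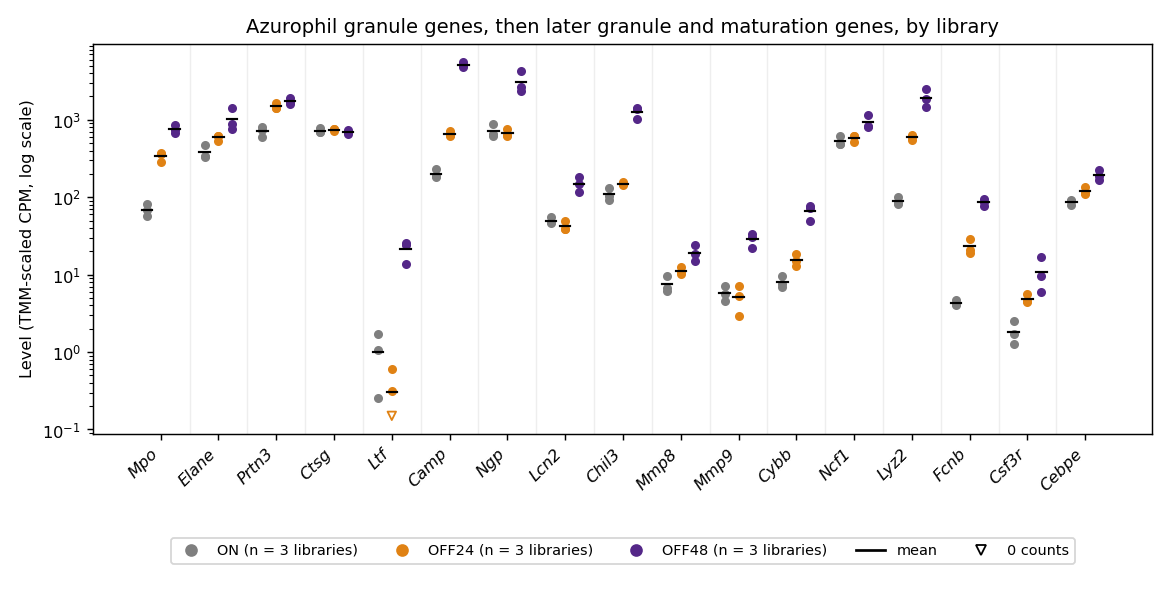
Level in CPM (vertical axis, log scale) of 4 azurophil granule genes, 12 later granule and maturation genes and Cebpe in each of the 9 libraries, grey for ON, orange for OFF24 and purple for OFF48, with bars for means and an open triangle for a library with 0 counts. Camp, Ngp, Chil3 and Ltf rise several-fold from OFF24 to OFF48, while the OFF24 and OFF48 libraries overlap for Prtn3 and Ctsg.

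The azurophil genes, which belong to the earlier stage, did not move as a body. Of 11 tested, 3 rose and 2 fell, with a median of 0.10 (9.99% and 11.2% over all tested genes), and without OFF24 replicate 3 only 1 rose. Mpo, myeloperoxidase, was the largest rise, from 288, 357 and 377 CPM to 743, 864 and 671 CPM (log2 fold change 1.15, SE 0.13, adjusted p = 2.94e-06). The serine proteases differed among themselves: Prtn3 was at 1500.3 ± 129.8 CPM in OFF24 and 1741 ± 172 CPM in OFF48 (log2 0.22, adjusted p = 0.191) and Ctsg at 741 ± 27.1 CPM in OFF24 and 689.5 ± 38.5 CPM in OFF48 (log2 -0.10, adjusted p = 0.459), neither past the test. Elane, neutrophil elastase, was at 769, 1406 and 871 CPM in OFF48 against 525, 625 and 626 CPM in OFF24 (log2 0.77, adjusted p = 0.0252), and its call was lost without OFF24 replicate 1, where the adjusted p was 0.071, and without OFF24 replicate 3. Ctsc, the protease that activates these proteases, fell from 31.8 ± 7.20 to 11.8 ± 4.59 CPM (log2 -1.36), as did Cst7, an inhibitor of it (log2 -1.05).

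Monocyte and macrophage genes were split, with 4 of 15 tested genes higher, 4 lower and a median of 0.22, beside 9.99% and 11.2% of all tested genes. Ccr2, the receptor that brings monocytes out of the marrow, fell from 260.0 ± 13.5 to 94.6 ± 25.9 CPM (log2 -1.47, adjusted p = 3.02e-05), and Lgals3, galectin-3, from 195 ± 9.15 to 55.6 ± 1.70 CPM (log2 -1.82, adjusted p = 1.58e-09). Ly6c2, whose 3' end is shared with Ly6c1, rose from 1807 ± 114 to 3209.8 ± 317 CPM (log2 0.83), and Ms4a6c and Mpeg1, a pore-forming macrophage protein, rose by 1.04 and 1.02 on the log2 scale. Csf1r, the M-CSF receptor, was at 29.4 ± 0.666 CPM in OFF24 and 23.3 ± 1.07 CPM in OFF48 (log2 -0.33, adjusted p = 0.23). The list has 29 genes with a row, and those below the filter included Apoe, C1qa, Mrc1 and Cx3cr1.

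Myeloid transcription factors rose more often than they fell, with 11 of 27 tested genes higher, 1 lower and a median of 0.30, beside 9.99% and 11.2% of all tested genes. Without OFF24 replicate 1 or replicate 3 the number that rose was 7, and without OFF48 replicate 3 the number that fell was 0. Cebpe, the factor of the granulocyte stage in which specific granules form, was at 110, 114 and 137 CPM in OFF24 and 188, 165 and 227 CPM in OFF48, all 3 OFF48 libraries being higher (log2 fold change 0.70, SE 0.12, adjusted p = 4.91e-04). Gfi1, a repressor that favours granulocytes, rose from 247 ± 15.7 to 335 ± 33.7 CPM (log2 0.44), while Cebpa (log2 -0.20, adjusted p = 0.256) and Cebpb (log2 -0.10, adjusted p = 0.557) did not pass. The immediate early factors Jun and Egr1 rose, Jun from 49.5 ± 9.19 to 129 ± 22.3 CPM and Egr1 from 16.2 ± 1.90 to 47.5 ± 18.4 CPM, whereas Fos and Junb did not pass. The MAX partners Mxd1 (log2 0.52) and Mxd4 (log2 0.48), which oppose MYC, rose, the former not without OFF24 replicate 1 (adjusted p = 0.0547), and Myc itself was at 8.57 ± 1.00 CPM in OFF24 and 6.81 ± 2.41 CPM in OFF48 (log2 -0.38, adjusted p = 0.384).

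Chemokines moved in both directions, 7 of 27 tested genes of the list rising and 7 falling, beside 9.99% and 11.2% of all tested genes. Cxcl2, which draws neutrophils, was at 8.36, 8.79 and 8.04 CPM in OFF24 and 70.5, 80.2 and 110.2 CPM in OFF48 (log2 fold change 3.38, SE 0.31, adjusted p = 5.47e-06). The CC chemokines Ccl6 (log2 -1.74), Ccl4 (log2 -1.54) and Ccl9 (log2 -1.43) fell. Among receptors Il6ra rose from 15.7 ± 1.33 to 42.5 ± 9.38 CPM, and so did C5ar1, the receptor of complement C5a, from 10.5 ± 0.960 to 43.6 ± 7.22 CPM. Without OFF24 replicate 3 the list had 4 rises. Other surface genes among the largest rises were the lectin receptor Clec4a2, from 66.4 ± 5.43 to 261 ± 26.0 CPM, and Mrgpra2a and Mrgpra2b, G protein-coupled receptors that share their 3' end, with log2 fold changes of 2.01 and 2.06. Rgs5 (chr1:169655501-169695813 on the plus strand), a brake on G protein signalling, was at 6.27, 4.39 and 5.66 CPM in OFF24 and 57.0, 66.0 and 57.4 CPM in OFF48 (log2 fold change 3.46, SE 0.19, adjusted p = 1.02e-10). Its groups lay far apart, and its ON level was 1.52 ± 0.281 CPM. Ankrd22 (log2 2.01) and the carboxylesterase Ces1d (from 4.93 ± 1.97 to 20.7 ± 5.89 CPM) were also among the largest rises.

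The S100 family divided. S100a8 and S100a9 rose as described, S100a11, with 2 gene models ending like it, rose from 202 ± 5.03 to 337 ± 89.8 CPM (log2 0.72) and S100a1 from 90.4 ± 17.7 to 151 ± 23.7 CPM (log2 0.71). S100a6, also called calcyclin, was at 212, 218 and 201 CPM in OFF24 and 15.1, 12.8 and 17.5 CPM in OFF48 (log2 fold change -3.75, SE 0.14, adjusted p = 8.46e-13). S100a4 was at 33.5, 38.9 and 45.6 CPM and then 2.35, 3.00 and 1.46 CPM (log2 fold change -4.23, SE 0.27, adjusted p = 1.10e-09), with 1 other gene model sharing its 3' end. It had 357 counts over the 3 OFF24 libraries and 16 over the 3 OFF48 libraries, a ratio of 19.3 with a 95% counting interval of 11.7 to 34.2. S100a10, the partner of annexin A2, was at 48.5, 43.9 and 42.0 CPM and then 4.70, 6 and 4.67 CPM (log2 fold change -3.17, SE 0.19, adjusted p = 5.20e-10). For these 3 genes every OFF48 library was far below every OFF24 library. S100a13 was at 112 ± 4.85 CPM in OFF24 and 119 ± 16.7 CPM in OFF48 (log2 0.09, adjusted p = 0.622). S100a4 (chr3:90603771-90606045 on the plus strand), S100a6 (chr3:90612882-90624181 on the plus strand), S100a8 (chr3:90668978-90670035 on the plus strand) and S100a9 (chr3:90692632-90695721 on the minus strand) are neighbours on chromosome 3, and the first pair fell while the second rose.

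**Figure D4:**
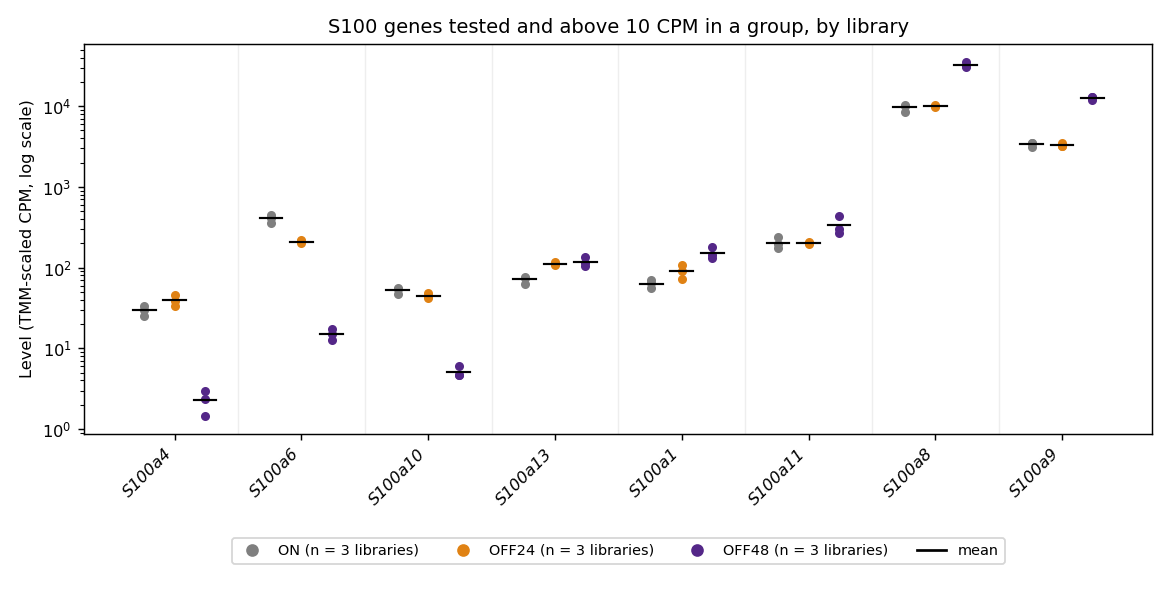
Level in CPM (vertical axis, log scale) of 8 tested S100 genes in each of the 9 libraries, grey for ON, orange for OFF24 and purple for OFF48, with bars for means. S100a4, S100a6 and S100a10 drop between OFF24 and OFF48, S100a8 and S100a9 climb, and S100a13 overlaps.

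Serine synthesis, the pathway that the study's title names, fell in 2 of its 3 enzymes. Phgdh, the first enzyme, was at 19.6, 25.1 and 22.6 CPM in OFF24 and 4.70, 3.75 and 5.54 CPM in OFF48 (log2 fold change -2.20, SE 0.22, adjusted p = 5.57e-07), from 107 ± 10.6 CPM in ON, and 7 other gene models end in the same sequence. Psat1, the aminotransferase of the second step, was at 89.5, 93.5 and 89.4 CPM and then 42.6, 51.7 and 47.5 CPM (log2 fold change -0.96, SE 0.11, adjusted p = 6.21e-06). Psph, the phosphatase of the last step, was at 30.1, 19.8 and 28.0 CPM and 23.1, 25.5 and 34.1 CPM with overlapping groups (log2 fold change 0.12, SE 0.18, adjusted p = 0.679).

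The factor that controls this pathway, Atf4, was at 328, 321 and 343 CPM in OFF24 and 389, 493 and 294 CPM in OFF48, where the groups overlapped (log2 fold change 0.23, SE 0.14, adjusted p = 0.265). The list of its targets, which includes Phgdh, was split: of 29 tested, 6 rose and 5 fell, with a median of -0.10, while over all tested genes 9.99% rose and 11.2% fell. The rises included Atf5, from 29.5 ± 3.89 to 67.8 ± 19.5 CPM (log2 1.13), the stress genes Chac1 (log2 1.82) and Herpud1 (log2 0.62), and Mthfd2, a mitochondrial folate enzyme, from 76.0 ± 7.93 to 118 ± 1.21 CPM (log2 0.62). The falls included Stc2 and Ddit4, which also stand in the HIF list, beside Phgdh and Psat1. In the one-carbon list of 16 tested genes 2 rose and 3 fell, and 4 rose without ON replicate 2; Mthfd1l fell from 169 ± 8.24 to 75.2 ± 1.85 CPM (log2 -1.17) and Ahcy, which clears S-adenosylhomocysteine, from 69.4 ± 10.4 to 27.5 ± 4.32 CPM (log2 -1.29). Of 20 tested aminoacyl-tRNA synthetases 2 fell and 0 rose, near the 11.2% of all tested genes that fell, and the falls numbered 0 to 4 over the alternatives, with 0 without OFF24 replicate 2 or OFF48 replicate 1 and 1 without OFF24 replicate 1 or 3 or OFF48 replicate 3.

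STAT5 targets changed more often downward than upward. Of 14 tested, 6 fell and 1 rose, with a median of -0.29, where over all tested genes 9.99% rose and 11.2% fell. Pim1, a survival kinase, was at 166, 174 and 185 CPM in OFF24 and 42.6, 53.2 and 54.5 CPM in OFF48 (log2 fold change -1.81, SE 0.13, adjusted p = 5.82e-09), from 405 ± 51.0 CPM in ON. The feedback inhibitor Cish fell from 36.0 ± 0.475 to 8.38 ± 3.39 CPM (log2 -1.96), Socs1 by 1.65 and the cytokine Osm by 1.58 on the log2 scale. Ccnd2, a cyclin of G1, and Pim3 fell too (log2 -1.46 and -0.74). Bcl2l1, which encodes the survival protein BCL-XL, was the 1 member that rose, from 14.6, 11.6 and 15.2 CPM to 30.5, 29.2 and 30.6 CPM (log2 fold change 1.13, SE 0.17, adjusted p = 7.66e-05). Of ERK output genes 6 of 14 fell and 4 rose, with a median of -0.51. Fosl1 had 50 counts over the 3 OFF24 libraries and 3 over the 3 OFF48 libraries, a ratio of 14.4 with a 95% counting interval of 4.67 to 72.4, and Spred1, a RAS pathway inhibitor, 92 counts over the 3 OFF24 libraries and 13 over the 3 OFF48 libraries, a ratio of 6.13 with a 95% counting interval of 3.4 to 12. Dusp5, an ERK phosphatase, fell from 12.5 ± 0.655 to 5.61 ± 1.62 CPM (log2 -1.05), while Egr1 and Phlda1 rose. Leaving out OFF48 replicate 3 left 3 falls, and leaving out OFF24 replicate 3 left 2 rises.

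The protein synthesis machinery fell by small amounts over many genes. Of 52 cytosolic ribosomal protein genes 38 fell and 0 rose, with a median of -0.41 (11.2% of all tested genes fell), and of 17 translation factors with a 5' terminal oligopyrimidine tract, a sequence through which mTOR controls translation, 11 fell and 0 rose, with a median of -0.42. Eef1a1, elongation factor 1α, was at 13280, 12540 and 12960 CPM in OFF24 and 9326, 8135 and 9318 CPM in OFF48 (log2 fold change -0.53, SE 0.09, adjusted p = 1.94e-04). In the authors' log2 table its difference was -1.01, further from zero than under the other alternatives. Eef2 fell from 3053 ± 284 to 1577 ± 117 CPM (log2 -0.95) and Eef1g from 199.9 ± 5.93 to 81.6 ± 8.21 CPM (log2 -1.29). Rps2 (log2 -1.28), Rpl3 (log2 -0.84) and Rpl8 (log2 -0.74) were among the ribosomal proteins that fell, and many such genes share 3' ends with pseudogenes. Rps23 fell from 7398 ± 862 to 4926 ± 813 CPM (log2 -0.59, adjusted p = 0.00744), but not without OFF48 replicate 3, where the adjusted p was 0.0527. Of 32 MYC and ribosome biogenesis genes 4 fell and 0 rose, with a median of -0.12, which is near the 11.2% of all tested genes that fell; the falls were 7 without ON replicate 2 and up to 8 under other settings. Npm1, nucleophosmin, fell from 1149, 1085 and 1259 CPM to 439, 412 and 376 CPM (log2 fold change -1.51, SE 0.10, adjusted p = 1.52e-09) and Ncl, nucleolin, from 424 ± 11.6 to 246 ± 30.8 CPM (log2 -0.79).

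Heat shock proteins and chaperones fell in 8 of 18 tested genes and rose in 0, with a median of -0.37, beside 11.2% of all tested genes that fell. Hsp90ab1, the constitutive HSP90, fell from 3562, 3818 and 4132 CPM to 1488, 1489 and 1238 CPM (log2 fold change -1.45, SE 0.10, adjusted p = 2.51e-09). Hspe1 (log2 -1.03) and Hspd1 (log2 -0.61), partners in the mitochondrial chaperonin, the former sharing its end with 1 gene model, and the chaperonin subunits Tcp1 (log2 -0.93) and Cct2 (log2 -0.58) fell as well. In the endoplasmic reticulum 6 of 21 genes fell and 1 rose; P4hb, protein disulfide isomerase, fell from 819 ± 6.40 to 521 ± 46.5 CPM (log2 -0.66), and the number of falls was 2 without OFF24 replicate 3 and 3 without OFF48 replicate 3.

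Parts of lipid synthesis fell. Of 23 tested cholesterol synthesis genes 13 fell and 0 rose, with a median of -0.41 (11.2% of all tested genes fell), and 8 fell without OFF24 replicate 1. Hmgcs1, which opens the pathway, fell from 113 ± 6.69 to 63.6 ± 7.66 CPM (log2 -0.80), Mvd from 141 ± 20.5 to 86.1 ± 10.2 CPM (log2 -0.73) and Sqle, squalene epoxidase, from 33.4 ± 1.24 to 19.6 ± 1.84 CPM (log2 -0.77). Of 11 fatty acid synthesis genes 4 fell and 0 rose, with a median of -0.40. Scd2, a stearoyl-CoA desaturase, was at 311, 308 and 298 CPM in OFF24 and 56.0, 62.2 and 49.3 CPM in OFF48, with no overlap (log2 fold change -2.47, SE 0.12, adjusted p = 2.97e-11). Its relative Scd1 had 19 counts over the OFF24 libraries and 1 over the OFF48 libraries, a ratio of 16.5 with a counting interval of 2.62 to 684, and did not pass with the authors' log2 table (adjusted p = 0.103). Elovl6, a fatty acid elongase, fell from 4.96 ± 0.762 to 0.960 ± 0.433 CPM, with 44 counts over the 3 OFF24 libraries and 8 over the 3 OFF48 libraries, a ratio of 4.77 with a 95% counting interval of 2.22 to 11.7. Me1, a source of NADPH, fell from 86.9 ± 10.5 to 40.8 ± 10.3 CPM (log2 -1.03).

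Cell cycle genes changed by small amounts. Of 43 DNA replication and S phase genes 10 rose and 0 fell, with a median of 0.27, and of 40 G2 and M phase genes 6 fell and 0 rose, with a median of -0.14; over all tested genes 9.99% rose and 11.2% fell, so the G2 and M count is near that of all genes. Mcm2, a subunit of the replicative helicase, was at 84.9, 97.3 and 88.2 CPM in OFF24 and 137, 164 and 161 CPM in OFF48 (log2 fold change 0.76, SE 0.11, adjusted p = 5.36e-05). Pcna, the polymerase clamp, rose from 179.5 ± 11.2 to 265 ± 23.8 CPM (log2 0.56), and E2f1, a factor that opens S phase, from 55.3 ± 5.05 to 83.2 ± 2.50 CPM (log2 0.59). Cdc25b, a phosphatase that starts mitosis, fell from 68.0 ± 9.41 to 33.1 ± 5.90 CPM (log2 -1.02), Bub1, a spindle checkpoint kinase, from 38.1 ± 3.68 to 21.1 ± 3.38 CPM (log2 -0.89) and Ccnb1, cyclin B1, from 105 ± 6.89 to 77.8 ± 2.62 CPM (log2 -0.43). Of 6 CDK inhibitors, the brakes on the cycle, 0 rose: Cdkn1a fell from 71.0 ± 12.6 to 37.3 ± 8.67 CPM (log2 -0.99), Cdkn2a fell from 11.5 ± 2.54 to 4.19 ± 1.38 CPM (log2 -1.57), and 4 did not pass. The cell cycle element TTTGAA or TTCGAA, known from promoters of G2 and M phase genes, stood before 27 of the 33 such genes matched in RefSeq (81.8%), against 16.7% of tested genes and 21.7% of all genes with a promoter, counted on both strands, TTCGAA being its own reverse complement. This share covers all matched members, whether or not they fell, and so does not bear on the change from 24 h to 48 h.

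Of the mitochondrially encoded genes 7 of 13 fell and 0 rose, with a median of -0.47, where 11.2% of all tested genes fell. ND6, a subunit of complex I and the 1 protein coded on the light strand of the mitochondrial genome, stood apart, at 117, 111 and 128 CPM in OFF24 and 4.03, 1.5 and 4.67 CPM in OFF48 (log2 fold change -4.93, SE 0.19, adjusted p = 1.18e-12). The others that fell did so by less, from ATP8 (log2 -1.37) and ND5 (log2 -0.87) to COX1 (log2 -0.47), an abundant one at 3999 ± 312 CPM in OFF48. ATP6 was among the 6 that did not pass. The 3' ends of the mitochondrially encoded genes were not checked for sharing, and the strand setting of the counts is not given. In the nucleus 12 of 53 oxidative phosphorylation genes fell and 0 rose, with a median of -0.20, beside 11.2% of all tested genes; 7 fell without OFF24 replicate 1 and 19 with the replicate block. Atp5d (log2 -0.57) and Atp5a1 (log2 -0.56), subunits of ATP synthase, were among them.

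Lysosomal genes rose in 7 of 33 tested and fell in 2, with a median of 0.11, beside 9.99% and 11.2% of all tested genes. Without ON replicate 2 the rises were 11, without OFF24 replicate 3 the falls were 0, and without OFF24 replicate 2 or OFF48 replicate 3 they were 1. Cd63, a membrane protein of lysosomes and azurophil granules with a pseudogene that shares its 3' end, rose from 1338 ± 157 to 2501 ± 343 CPM (log2 0.90). Tfeb, a factor that drives lysosomal genes, was at 7.69 ± 0.878 CPM in OFF24 and 10.5 ± 0.509 CPM in OFF48 and did not pass (log2 0.45, adjusted p = 0.317). The MLL-AF9 programme moved little, with 2 of 19 genes higher, near the 9.99% of all tested genes, 1 lower and a median of 0.01: Myb rose from 602 ± 24.0 to 802 ± 82.2 CPM (log2 0.42), Id2 from 93.9 ± 5.77 to 152 ± 19.8 CPM (log2 0.71), and Cd34, a progenitor marker, fell from 122 ± 4.36 to 66.5 ± 10.7 CPM (log2 -0.90); without ON replicate 2, and under 5 other alternatives, the falls were 2. In the BCL2 family 2 of 17 rose, Bcl2l1 and Bcl2l11 (log2 0.61), and 2 fell, Bnip3 and Pmaip1 (log2 -0.71), shares near those of all tested genes. The call of Bcl2l11 was lost under 7 of 20 alternatives, DESeq2 and upper quartile scaling among them, and without OFF24 replicate 2 or 3 or OFF48 replicate 1 or 3, with an adjusted p of up to 0.192.

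**Figure D5:**
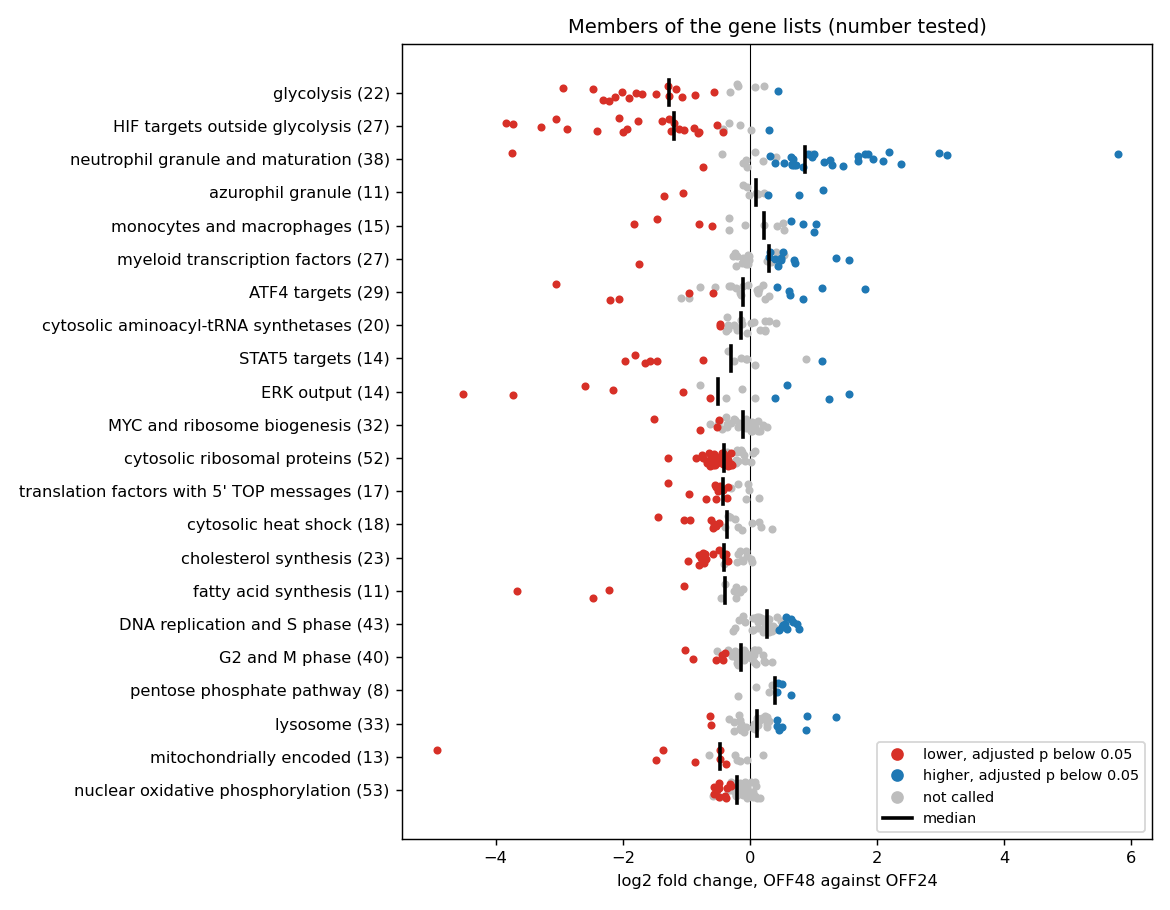
Log2 fold change of OFF48 against OFF24 (horizontal axis) for the tested members of 22 gene lists (rows, number tested in brackets), red for genes that fell, blue for genes that rose and grey for genes that did not pass the test, with a black bar at each list's median. Medians run from -1.28 for glycolysis to 0.87 for neutrophil granules and maturation; points are spread vertically within a row at random for display.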

How the data were processed

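Per the labels' protocols, TriZol and a column kit with DNase gave the RNA for QuantSeq 3' libraries. The table the authors deposited gives unnormalised whole-number counts of reads by gene symbol for all 9 libraries, whose columns were matched to samples by name. A second deposited table holds log2 values that the authors normalised with voom and limma, per its name, and served only as an alternative. The submitters' processing notes name, with no roles, mm10, limma 3.42.2, R 3.6.1, HISAT2 2.0.4, featureCounts, Subread 1.5.0-p3, cutadapt 1.5, FastQC 0.11.2 and bcl2fastq 2.17.1.14. For the annotation, the strand setting and reads with several matches, the choice is not given in the sources used here.

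Counts of all 9 libraries were fitted with edgeR 4.0.16 in R 4.3.3 (filterByExpr by group, TMM scaling, robust quasi-likelihood, 1 mean per group, 6 residual degrees of freedom), and OFF48 was tested against OFF24 with Benjamini-Hochberg adjustment at 0.05 over 10215 genes. The SE is the size of the log2 fold change divided by the square root of F, and can be below the counting error for genes with few counts, where a ratio of summed counts with its exact 95% interval is given. Intervals and the floor of 3 counts, 0.881 to 2.26 CPM in the OFF libraries, cover counting error only. The intervals pool the 3 libraries of a group and so leave out the scatter between replicates. Copies made by PCR are not independent molecules, so the counting error itself can be larger than they show. Replicates within a group differed beyond sampling noise, with a chi-square of 1.99 to 6.99 per degree of freedom, and each library counted once. Of the tested rows 220 had the same counts as another row. DESeq2 1.42.0, limma 3.58.1, other scalings and filters, a replicate block and leaving out each library were alternatives.

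The comparison, the 38 gene lists, the 6 marker lists and the naming rule were chosen with earlier results of these data known. The rule takes the 15 largest rises and falls with a mean of at least 10 CPM over the OFF libraries and no overlap, from each list up to 5 members of smallest p, the 5 most abundant genes that passed, and 11 genes set by name. Named beyond the rule, and picked after their values were seen, are Ptprc and these list members: Aldoa, Apoe, ATP6, Bnip3l, C1qa, Ccl4, Ccnd2, Cebpa, Cebpb, Chac1, Csf1r, Csf3r, Ctsg, Cx3cr1, Cxcr2, Cyba, Egln1, Ero1l, Etv4, Fcnb, Fos, Fpr1, Gapdh, Gfi1, Gpi1, Higd1a, Hist1h1a, Hist1h1b, Hist1h1d, Hist1h1e, Hk1, Hk2, Hk3, Il1b, Itgam, Junb, Lcn2, Ly6g, Lyz2, Mrc1, Mt1, Mxd1, Mxi1, Ncf1, Ncf4, Ndrg1, Pfkfb3, Pfkfb4, Pfkl, Pfkm, Pfkp, Pgam1, Pkm, Prtn3, Retnlg, S100a1, S100a11, S100a13, Slc16a3, Slc2a1, Slc2a3, Socs1, Spi1 and Vegfa. Some list members and other genes are not reported here. Positions are from GENCODE M21 (GRCm38) and promoters from RefSeq (GRCm38.p6). A 3' end was called shared where the last 400 bases matched another gene at 95% identity over 60% of their length.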

Additional observations from a re-analysis of the deposited data

How the results depend on the processing

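None of the 176 genes that passed the test and were named by rule changed direction under any of the 20 alternatives; genes that did not pass and lay near zero, such as Psph, Hif1a and Vhl, did change sign. Of the list members that passed, 225 of 334 passed under every alternative that tested them. The number of genes that changed, 2160 with edgeR, ran from 1506 without OFF24 replicate 3 to 2410 without ON replicate 2 when 1 library was left out, and from 1715 (DESeq2) to 2701 (replicate block) otherwise. The 16 glycolysis genes that fell numbered 15 to 16 when 1 library was left out and 15 to 17 otherwise, the 21 HIF targets 17 to 21 and 18 to 22, and the 28 granule genes that rose 24 to 29 and 27 to 29. The 38 ribosomal protein genes numbered 27 to 39 and 28 to 41, the 10 S phase genes 8 to 14 and 10 to 14, and the 13 cholesterol genes 8 to 14 and 11 to 14. Upper quartile scaling moved the split of calls towards falls, with 862 rises and 1301 falls (39.9% rises against 47.2%); every scaling kept the median of all genes within 0.04 of zero on the log2 scale. Same-numbered OFF24 and OFF48 libraries deviated from their group means with correlations of 0.086, 0.175 and -0.022 across genes. These are not all above 0.1, so the numbers were not taken to pair the compared groups. For ON and OFF48 they were 0.115, 0.406 and 0.189, and replicate 2 deviated together in every pair of groups (0.203, 0.406 and 0.175), as a hint from the data. The fit with the replicate block gave 1314 rises and 1387 falls, lost no named call and gained 10. The shallowest library, OFF48 replicate 2, limits genes of few counts most, since 3 counts there are 2.26 CPM.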

Other observations

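Of the genes that passed the test, 5 had no count in any OFF48 library, and those named here were picked after their values were seen. Sdc3, which encodes the cell-surface proteoglycan syndecan-3, had 36, 55 and 48 counts in the 3 OFF24 libraries and was at least 40.2-fold lower at 48 h, against a floor of 3 counts over the group (edgeR adjusted p = 1.39e-07). Gipr, a gut hormone receptor, was at least 7.80-fold lower, and Unc13a, a protein of synaptic vesicle release, at least 7.22-fold lower. Etv4, an ETS factor of the ERK list, had 250 counts over the ON libraries and 8 over the OFF24 libraries. Its fall to 0 after 24 h was at least 2.31-fold against the same floor (edgeR adjusted p = 0.0399). That call was lost under 8 of the 19 alternatives that tested Etv4. These lower bounds take the OFF24 counts as observed and leave out their counting error, which weighs most for Etv4. No gene that passed the test was without a count in OFF24.

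Histone genes of the replication-dependent class were split: of 29 tested, 10 fell and 4 rose, with a median log2 fold change of -0.52, beside 11.2% and 9.99% of all tested genes. The H3 and H4 genes Hist1h3c (from 28.9 ± 1.98 to 10.2 ± 1.93 CPM, log2 -1.56) and Hist1h4c (from 20.0 ± 0.614 to 7.69 ± 1.96 CPM, log2 -1.38) fell. The linker histones were split too: Hist1h1c (log2 0.64) and Hist1h1e (log2 0.97, with 2 genes ending like it) rose, and Hist1h1a fell. Hist1h1b and Hist1h1d did not pass, and the call of Hist1h1a was lost under 6 of 19 alternatives. Most messages of the replication-dependent class lack a poly(A) tail, and many share their 3' ends with other histone genes. Over the list, without OFF48 replicate 3 the falls were 5 and the rises 7, while leaving out ON replicate 3, OFF24 replicate 1 or 3, or OFF48 replicate 1 or 2 left 2 rises. The metallothionein Mt2 fell from 108 ± 9.01 to 42.5 ± 9.57 CPM (log2 -1.28). Mt1 fell by less, with log2 -0.41 to -0.28 over the alternatives, and its call was lost under 5 of 20. H2-Ab1, an MHC class II chain, fell from 13.4 ± 1.85 to 2.16 ± 0.586 CPM (119 counts over the 3 OFF24 libraries and 18 over the 3 OFF48 libraries, a ratio of 5.73 with a 95% counting interval of 3.47 to 10.0).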
